A study of Arabidopsis thaliana with 204 samples.

Results

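Gene expression was followed in the abaxial (lower) side of the Arabidopsis petiole while only the tip of the leaf received far-red light, to ask which responses had faded and which had appeared between 140 to 180 min and 300 min. The samples were all abaxial petiole samples of 140, 160, 180 and 300 min, 32 of the 204 in the series, chosen by tissue and time point without use of any measured value. They formed 8 groups of 4 replicates: FRtip (supplemental far-red on the leaf tip, which lowered the red to far-red ratio there to 0.05) and WL (white light alone, ratio 2.0) at each time point. All plants were Col-0 of 28 days, grown at 20 °C in 9 h of light and 15 h of darkness, and no mutant or transgene was involved. Each sample pooled material from the lower side of the petiole of several leaves, so a level is a mean over epidermis, cortex, vasculature and other cells, and fewer cells of a type cannot be told apart from less RNA per cell. The time since the start of FRtip and the time of day cannot be told apart, and every effect is FRtip minus WL at the same time point. The labels do not say whether replicates were grown apart, so p-values measure the spread between these samples.

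A low red to far-red ratio is the light signal that neighbouring plants give. Phytochromes sense it, and PHYTOCHROME INTERACTING FACTORs then switch on auxin synthesis. Auxin releases AUXIN RESPONSE FACTORs from Aux/IAA repressors, and among the fastest target genes are the SAURs (small proteins that keep plasma membrane proton pumps active and so loosen the wall), the Aux/IAA repressors themselves and the GH3 enzymes that conjugate free auxin, so that the response carries its own brakes. Gibberellins, brassinosteroids and ethylene act with auxin in cell elongation, and elongation on the abaxial side of the petiole lifts the leaf, a movement called hyponasty.

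The 32 libraries held 2349609 to 4291590 reads on genes (median 2997782), recovered from the deposited normalized counts, and 20239 to 21383 genes with at least 1 read. No library stood apart, since the mean correlation of each with the others of its group was 0.971 to 0.979. PIL1, a gene directly induced by a low red to far-red ratio, was at 546 to 1340 normalized counts in FRtip leaf tips and at 0 to 9.08 in WL leaf tips over these time points. In abaxial petioles at 140 to 180 min it was at 40.4 to 61.4 in FRtip (median 47.8) and 25.9 to 55.5 in WL (median 36.6). At 300 min it was at 27.1 to 48.5 in FRtip and 25.7 to 42.3 in WL abaxial petioles. The 7 abaxial identity genes (KANADI, YABBY and ARF genes) summed to 443 to 778 normalized counts in FRtip and 564 to 739 in WL abaxial samples, against 290 to 401 in FRtip and 317 to 425 in WL adaxial samples. Root and flower markers were at or near 0, with summed levels of at most 0.604 and 1.43 in any abaxial sample.

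Effects were estimated on log2(normalized count + 1) with limma over 19963 genes, and a gene was called at a Benjamini-Hochberg adjusted p below 0.05. More genes were called at 140 to 180 min than at 300 min. At 140 to 180 min (12 FRtip and 12 WL samples) 1171 genes were higher (5.87% of those tested) and 1015 lower (5.08%), and at 300 min (4 and 4 samples) 534 were higher (2.67%) and 901 lower (4.51%), with a larger error at 300 min because it rests on fewer samples. The difference between the windows, defined as the effect at 140 to 180 min minus the effect at 300 min, was above 0 in 228 genes (1.14%) and below 0 in 92 (0.461%), around a median of 0 over all genes. A positive difference can be a rise that faded or a fall that came late, so the called genes were sorted by the effect in each window into 4 classes, which is a description by the same contrasts and not a further test. A total of 242 genes were higher and 370 lower in FRtip in both windows.

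Faded rises, called higher in FRtip at 140 to 180 min and called for a positive difference, numbered 121. Faded falls, the mirror image, numbered 20. Late rises, called higher in FRtip at 300 min and called for a negative difference, numbered 75, and late falls, the mirror image, 116. Together these were 314 distinct genes of the 320 called for the difference. The counts leaned on the number of replicates. Without replicate 1, 2, 3 or 4 in every group, 146, 147, 125 and 81 genes had a positive and 42, 38, 39 and 26 a negative difference, and faded rises numbered 89, 94, 72 and 50, faded falls 14, 12, 10 and 9, late rises 29, 26, 30 and 17, and late falls 60, 54, 60 and 34. Leaving out any single 300 min library gave 154 to 234 genes with a positive and 64 to 88 with a negative difference, although without WL replicate 4 late falls numbered 70 and 582 genes were lower in FRtip at 300 min. At the threshold itself, RTFL16 had a difference of 0.87 (adjusted p 0.0489) and BZIP61, just outside, 0.62 (adjusted p 0.0511).

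**Figure D1:**
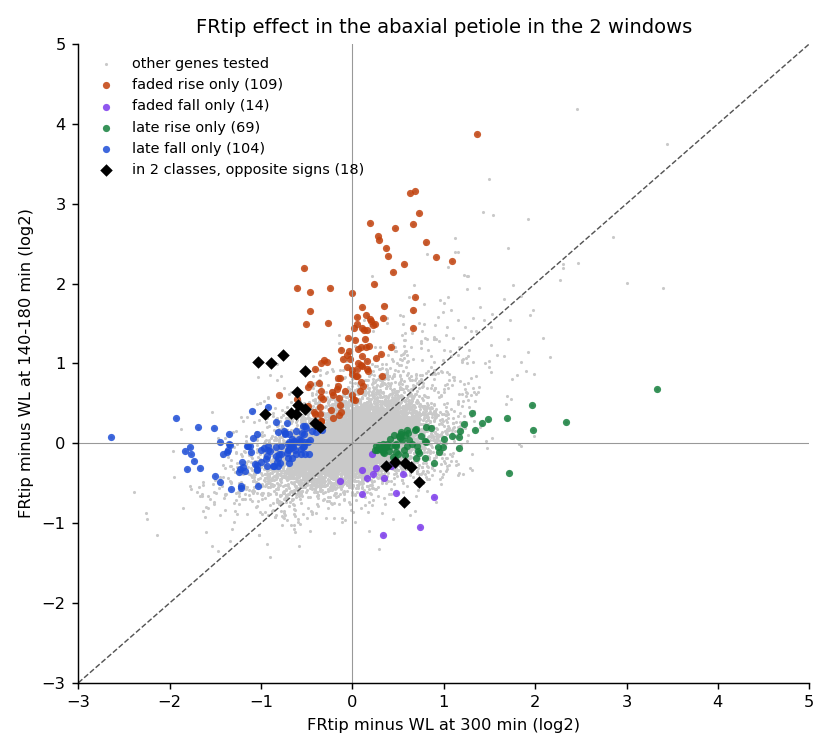
FRtip minus WL on the log2 scale at 300 min (horizontal) and at 140 to 180 min (vertical) for the 19963 genes tested, with genes in 1 class coloured and the 18 genes in 2 classes as black diamonds. Faded rises lie high and near 0 on the horizontal axis, late rises and late falls lie right and left near 0 on the vertical axis, and the dashed line marks equal effects.

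The median effect of the faded rises was 1.03 at 140 to 180 min and 0 at 300 min, where 3 of 121 were still higher in FRtip by the test and 12 were lower. The median effect of the faded falls was -0.40 at 140 to 180 min and 0.39 at 300 min. At 300 min 6 of 20 were called higher in FRtip and none lower. Each class was chosen by a called difference between the windows, which favours such a shift, so these medians and counts are a description. In the first window the median effects were -0.02 for late rises (0.60 at 300 min) and -0.05 for late falls (-0.82 at 300 min). There 3 of the 75 late rises were called higher and 6 lower, and 12 of the 116 late falls were called higher and 20 lower. In faded rises the FRtip level moved more than the WL level in 96 of 121 genes, and its median was 0.81 log2 units higher at 140 to 180 than at 300 min. The WL level moved the other way in 101 of them, with a median of -0.29, and was called higher at 300 min in 32. In late falls the FRtip level moved more in 110 of 116 genes and in late rises in 63 of 75, whereas in faded falls it did so in 11 of 20.

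The samples of 60 to 120 min, which enter none of these contrasts, showed when the responses began. At 60 to 80 min 2 genes of the 19963 were called in either direction (0.01%) and none of them was in a class. At 100 to 120 min 204 genes were higher (1.02%) and 41 lower (0.205%), and 79 of the 121 faded rises (65.3%) were among the higher ones, with a class median of 0.69. The class median was 0.33 at 100 min, 1.03 at 120 min, 0.94 at 140 min, 1.16 at 160 min and 1.02 at 180 min. Of the 20 faded falls, 2 were lower at 100 to 120 min. None of the 75 late rises was higher by the test and 1 was lower, and none of the 116 late falls was lower and 5 were higher. By 180 min the medians of the late classes had begun to leave 0, at 0.10 for late rises and -0.19 for late falls.

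**Figure D2:**
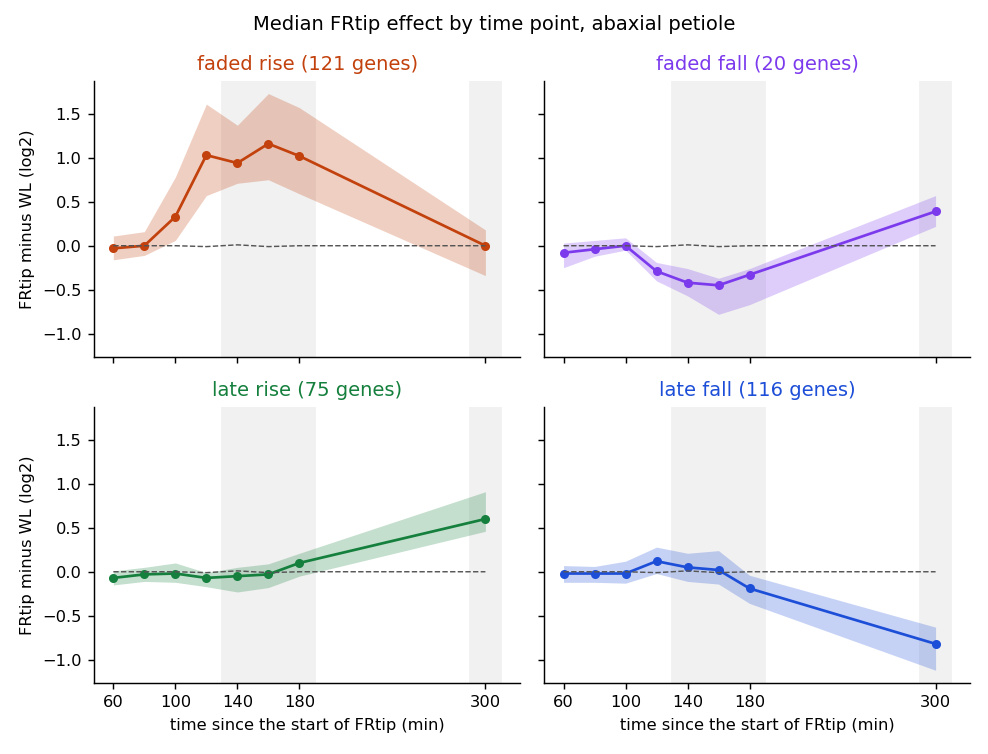
Median FRtip minus WL (log2) at each time point from 60 to 300 min for the genes of each class, with the band from the lower to the upper quartile, the median of all tested genes as a dashed line and the 2 windows shaded. Faded rises climb between 80 and 120 min and are back at 0 at 300 min, and the late classes are at medians of 0.10 and -0.19 at 180 min and farthest from 0 at 300 min. Only the values outside the shaded windows are free of the choice of the genes.

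Counts in the gene lists below stand beside these shares over all genes. A positive difference was called in 1.14% and a negative one in 0.461%. At 140 to 180 min 5.87% were higher in FRtip and 5.08% lower, and at 300 min 2.67% and 4.51%. Of the gene lists, the SAUR family held the most faded rises. Of 57 SAURs tested, 22 were faded rises and none had a negative difference, with a median difference of 0.78 against 0 over all genes. At 140 to 180 min 31 SAURs were higher and 4 lower in FRtip, and at 300 min 1 was higher and 1 lower. At 100 to 120 min 24 were already higher. SAURs of a tandem cluster are near-identical copies, and how reads that fit several copies were counted is not given in the sources used here, so the value of a single copy is uncertain.

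SAUR22, of the chromosome 5 cluster, had 121, 168 and 211 normalized counts (lowest, median and highest of 12) in FRtip at 140 to 180 min, against 35.3, 63.9 and 84.4 in WL. At 300 min the 4 FRtip samples had 59.2, 64.3, 101 and 85.7, against 71.7, 55.7, 53.8 and 75.8 in WL. The groups were separate in the first window and overlapped at 300 min. The effect was 1.49 ± 0.11 (SE, log2) at 140 to 180 min and 0.25 ± 0.19 at 300 min, a difference of 1.24 ± 0.22 (adjusted p 0.000317, limma).

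The other called members of this cluster, SAUR19, SAUR20, SAUR21, SAUR23 and SAUR24, had differences of 1.05 (SAUR24) to 1.77 (SAUR19). SAUR26 to SAUR29, on chromosome 3, had differences of 0.95 (SAUR29) to 1.60 (SAUR28). All members named SAUR62 to SAUR68 on chromosome 1 that were tested passed as well, among them SAUR63, whose effect was 1.16 ± 0.13 at 140 to 180 min and -0.04 ± 0.22 at 300 min. In SAUR63 the FRtip samples had 73.1, 109 and 137 normalized counts at 140 to 180 min, against 36.8, 45.4 and 62.2 in WL, and at 300 min 47.4, 40.3, 52.4 and 54.4 in FRtip, against 65.3, 36.9, 43.8 and 57.4 in WL. SAUR15, one of the first known auxin-induced SAURs, had 110, 158 and 196 in FRtip and 39.4, 64 and 89.5 in WL in the first window, and 88.8, 84.4, 123 and 110 in FRtip and 97.6, 95.4, 74.7 and 98.6 in WL at 300 min, a difference of 1.17 ± 0.21 (adjusted p 0.000312). Here too the overlap at 300 min followed a clear separation.

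SAUR25 (AT4G13790) was not called, at 1.55 ± 0.61 (adjusted p 0.264). Its WL samples held at most 3 reads each at 140 to 180 min, and at 300 min it was at 14.1, 10.1, 36.5 and 21 normalized counts in FRtip and 16.5, 4.87, 9.04 and 13.0 in WL. SAUR1 (AT4G34770), SAUR23, SAUR65 (AT1G29460), SAUR68 and AT1G29490 lost the call without 1 or more single 300 min libraries, with adjusted p up to 0.24 for SAUR1 without FRtip replicate 2, 0.0652 for SAUR23, 0.111 for SAUR65, 0.0628 for SAUR68 and 0.0675 for AT1G29490, each without WL replicate 4.

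The promoters of these genes are shown because short words linked to growth regulators were frequent there. The words searched on both strands of the 250 bases before each annotated start were TGTCTC and TGTCGG (bound by AUXIN RESPONSE FACTORs), CACATG (the HUD box) and CACGTG (the G-box), both bound by bHLH factors, ACGTGTC and ACGTGGC (abscisic acid response elements), CGTGCG and CGTGTG (bound by the brassinosteroid factor BZR1), AATATCT (the evening element of the clock) and TATCCA (linked to sugar). CACGTG, the ACGTG words and the BZR1 words can overlap each other. CACATG stood in 17 of the 22 SAUR faded rises (77.3%), in 11 of the 35 other SAURs tested (31.4%), in 15 of the 99 faded rises that are no SAUR (15.2%) and in 2221 of 19810 promoters of tested genes (11.2%). TGTCTC stood in 23.1% of faded rises, 14.7% of late falls, 13.3% of late rises and 10.7% of all tested genes. The other auxin word, TGTCGG, stood in 7.44% of faded rises, 5.17% of late falls, 12% of late rises and 4.67% of all tested genes, and at least one of the pair in 27.3%, 19.8%, 25.3% and 14.9%. Copies in a cluster share ancestry, so their matches are not independent, and a match is a description and not a bound site. The sequences are those of the TAIR10.1 genome (RefSeq), 5′ to 3′ on the strand of the gene, with every match of a searched word in capitals, and these genes were picked after their matches were seen. SAUR22 (chr5:5975088-5975337, minus strand) and SAUR15 (chr4:18125807-18126056, plus strand) hold TGTCTC and CACATG near each other, both read on the opposite strand, SAUR15 with CACATG once more upstream, and SAUR63 (chr1:10305109-10305358, minus strand) holds CACATG on each strand and TGTCGG.
SAUR22: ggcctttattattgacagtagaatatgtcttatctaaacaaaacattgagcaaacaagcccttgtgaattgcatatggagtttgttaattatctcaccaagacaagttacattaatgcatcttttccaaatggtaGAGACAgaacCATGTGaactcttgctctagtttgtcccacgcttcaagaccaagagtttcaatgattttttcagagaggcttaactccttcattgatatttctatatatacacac
SAUR15: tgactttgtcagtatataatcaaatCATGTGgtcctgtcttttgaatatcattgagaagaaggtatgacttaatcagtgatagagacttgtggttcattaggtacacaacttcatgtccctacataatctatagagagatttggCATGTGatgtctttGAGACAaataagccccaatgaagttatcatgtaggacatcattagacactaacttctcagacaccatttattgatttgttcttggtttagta
SAUR63: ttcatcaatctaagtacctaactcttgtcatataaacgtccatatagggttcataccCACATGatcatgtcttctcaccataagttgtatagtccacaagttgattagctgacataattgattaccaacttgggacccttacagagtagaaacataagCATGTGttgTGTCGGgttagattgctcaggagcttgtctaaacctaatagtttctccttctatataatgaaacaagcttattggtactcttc

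Of 25 Aux/IAA repressors tested, 18 were higher in FRtip at 140 to 180 min and 4 at 300 min, none was lower, and 6 were faded rises (IAA1, IAA3, IAA4, IAA5, IAA6 and IAA30), with a median difference of 0.36 over the list. IAA5 had 59.1, 108 and 160 normalized counts in FRtip at 140 to 180 min, against 4.62, 11.8 and 17.5 in WL, and 40.0, 33.3, 41.4 and 48.5 in FRtip at 300 min, against 32.3, 16.7, 20.5 and 33.6 in WL. The groups were far apart in the first window and close at 300 min, where the lowest FRtip sample lay just below the highest WL sample. The effects were 3.16 ± 0.21 and 0.69 ± 0.36, a difference of 2.47 ± 0.42 (adjusted p 0.000191).

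IAA30 lacks the part that makes other Aux/IAA proteins unstable. Its effect was 0.20 at 120 min, against 3.45 for IAA5, and then 2.00 at 140 min and 2.87 at 160 min. It had 20.9, 31.5 and 55.9 normalized counts in FRtip, against 2.96, 4.77 and 8.20 in WL, in the first window, and 12.6, 4.65, 6.89 and 2.69 in FRtip, against 5.02, 6.27, 3.81 and 3.79 in WL, at 300 min. The difference of 2.27 ± 0.41 (adjusted p 0.000441) came from the FRtip samples, whose level moved by 2.25, against -0.02 in WL. IAA1 lost its call without FRtip replicate 2 (adjusted p 0.0646), WL replicate 1 (0.0631) or WL replicate 4 (0.0875) of 300 min.

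IAA29, another Aux/IAA repressor, stayed apart in both windows. It had 6.61, 25.4 and 111 normalized counts in FRtip at 140 to 180 min, against 0, 1.04 and 5.70 in WL, and 44.4, 36.4, 37.9 and 23.2 in FRtip at 300 min, against 1.43, 4.87, 4.28 and 0.542 in WL, with no overlap in either window. The effects of 3.75 ± 0.31 and 3.44 ± 0.54 differed by 0.31 ± 0.62 (adjusted p 0.934).

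**Figure D3:**
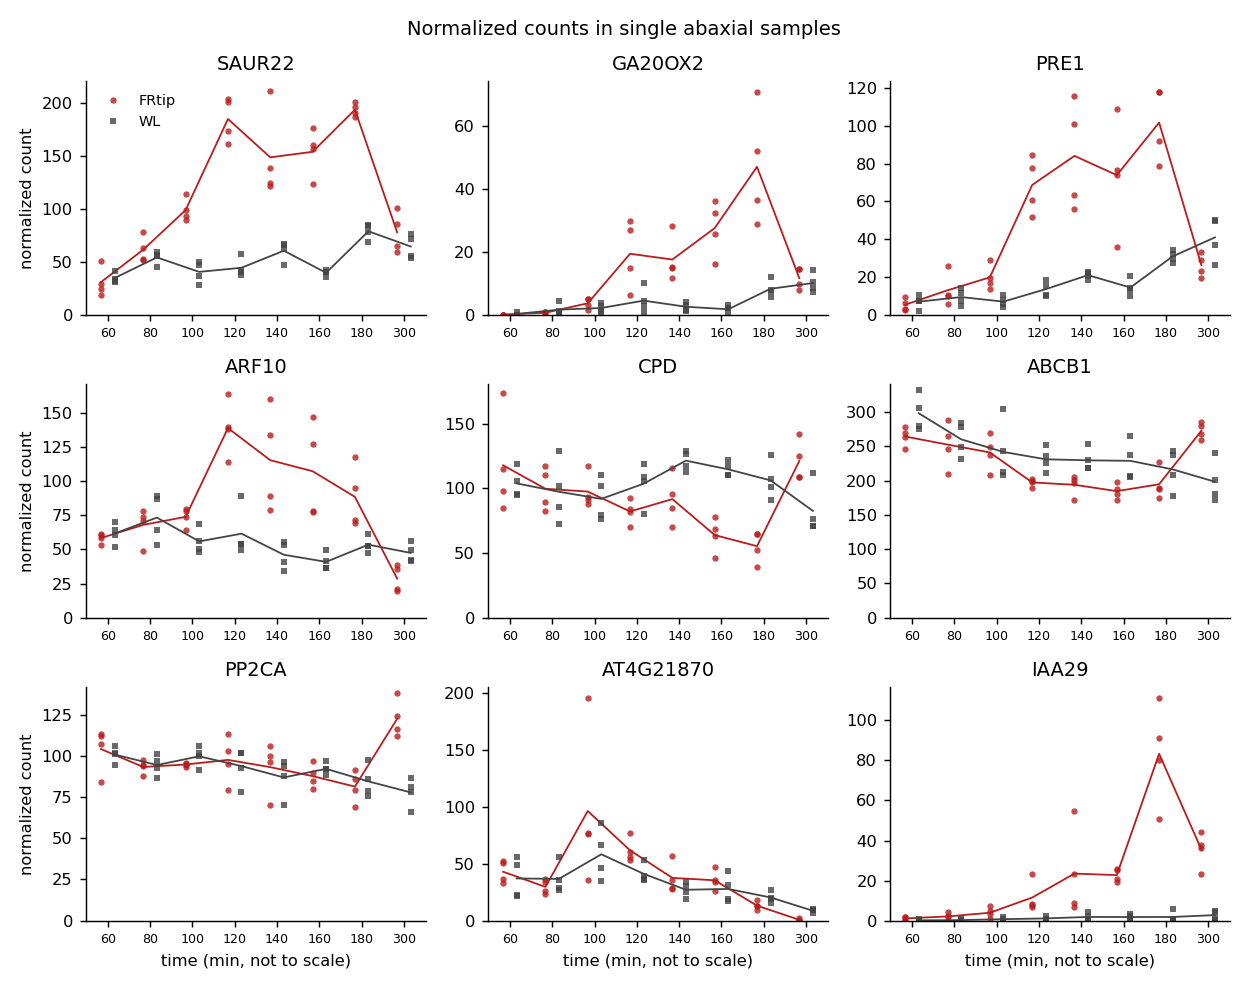
Normalized counts (vertical, linear from 0) in every abaxial sample at 60 to 300 min (horizontal, time points evenly spaced and not to scale) for 9 genes, FRtip as red circles and WL as grey squares with lines through the means of 4 replicates. SAUR22, GA20OX2 and PRE1 separate and meet again, ARF10, CPD and ABCB1 cross, PP2CA and AT4G21870 separate only at 300 min, and IAA29 stays apart.

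Other auxin-responsive genes were faded rises too. HAT2, an auxin-inducible homeodomain-leucine zipper factor, had 226, 348 and 432 normalized counts in FRtip at 140 to 180 min, against 28.4, 65.4 and 76.7 in WL, and 124, 73.6, 116 and 119 in FRtip at 300 min, against 96.9, 75.9, 78.0 and 99.1 in WL. The groups overlapped only at 300 min, and the difference was 2.32 ± 0.29 (adjusted p 5.74e-07). GH3.3, which joins auxin to amino acids, had an effect of 3.87 ± 0.28 at 140 to 180 min, the largest of the class, and 1.36 ± 0.49 at 300 min. It had 9.66, 23.1 and 49.1 normalized counts in FRtip, against at most 2 reads (up to 1.33 normalized counts) in every WL sample, so the size of its effect depends on the pseudocount, and 6.66, 5.42, 11 and 1.08 in FRtip at 300 min, against 0.717, 0, 4.28 and 2.17 in WL. Its call was lost without FRtip replicate 4 of 300 min (difference 2.01, adjusted p 0.0576). GH3.3 was the 1 gene called for the difference among 7 GH3 genes tested, whose median difference was 0.21. Of the auxin synthesis genes none was called, although YUC3, a YUCCA enzyme of the last step to auxin, stood at 1.70 ± 0.50 (adjusted p 0.0701). HB17, another homeodomain-leucine zipper gene, had the largest difference of the class, at 2.73 ± 0.53 (adjusted p 0.00127), with an effect of 2.20 in the first window, but its mean was under 10 normalized counts and it is named here after its values were seen. AT3G50340, among the 8 largest faded rises with a mean of at least 10, had 80.5, 227 and 342 in FRtip and 16.1, 32.4 and 45.9 in WL in the first window, and 68.1, 49.6, 103 and 76.5 in FRtip and 68.9, 31.3, 55.2 and 59.6 in WL at 300 min. The promoter of IAA5 (chr1:5366498-5366747, minus strand) is shown as the one in this group with 3 auxin words, TGTCGG on each strand and TGTCTC.
IAA5: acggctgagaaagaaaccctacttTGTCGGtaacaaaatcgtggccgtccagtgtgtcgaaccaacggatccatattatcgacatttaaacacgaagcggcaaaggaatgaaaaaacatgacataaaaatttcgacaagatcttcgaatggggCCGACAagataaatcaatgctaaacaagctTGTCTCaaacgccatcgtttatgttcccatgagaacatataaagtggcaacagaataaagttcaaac

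Of 27 auxin transport genes, 3 had a positive and 1 a negative difference. PIN4, an auxin efflux carrier, had 128, 154 and 203 normalized counts in FRtip at 140 to 180 min, against 58.8, 88.3 and 106 in WL, and 97.7, 97.6, 87.5 and 92.1 in FRtip at 300 min, against 88.2, 96.8, 87.1 and 89.9 in WL, a difference of 0.79 ± 0.15 (adjusted p 0.00124). PIN3, a related carrier that moves auxin sideways in bending organs, had an effect of 0.84 ± 0.07 at 140 to 180 min and of 0.32 ± 0.13 at 300 min, where FRtip (510, 484, 493 and 493) still lay above WL (423, 361, 429 and 380). Its difference of 0.53 (adjusted p 0.0425) lost the call in 7 of the 8 fits without a single 300 min library, with adjusted p of 0.0596 to 0.115.

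ABCB1, an efflux carrier of another family, changed in both windows. It was lower in FRtip at 140 to 180 min (172, 189 and 227 normalized counts, against 177, 224 and 266 in WL, effect -0.23 ± 0.06) and higher at 300 min (259, 280, 268 and 285, against 172, 201, 240 and 181 in WL, effect 0.47 ± 0.11). PILS3 (AT1G76520), an auxin carrier of the endoplasmic reticulum, was a late fall, with 33.3, 16.3, 21.4 and 28.6 in FRtip and 49.5, 63.4, 39.5 and 70.4 in WL at 300 min. Its difference of 1.12 ± 0.28 (adjusted p 0.0217) was not called without FRtip replicate 2 (0.114) or 3 (0.0629) or WL replicate 2 (0.0664) or 4 (0.099).

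Some genes of gibberellin synthesis were faded rises, with some of the largest differences. Of 9 tested, 3 passed and none had a negative difference: GA20OX1 and GA20OX2, which make the gibberellin precursors, and GA3OX1, which makes the active hormone. At 140 to 180 min 4 of the 9 were higher in FRtip and 2 lower, and at 300 min none was higher and 1 lower. GA20OX2 had 11.7, 28.7 and 70.9 normalized counts in FRtip at 140 to 180 min, against 0, 3.05 and 11.8 in WL, and 9.62, 7.75, 14.5 and 14.5 in FRtip at 300 min, against 14.3, 8.36, 7.14 and 10.3 in WL. The lowest FRtip sample only just met the highest WL sample in the first window, and at 300 min the groups were mixed. The difference was 2.57 ± 0.52 (adjusted p 0.00176), with the FRtip level 1.19 log2 units higher in the first window than at 300 min and the WL level lower (a change of -1.38).

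GA3OX1 had 7.21, 10.9 and 19.4 in FRtip and 0.604, 2.25 and 5.88 in WL at 140 to 180 min, and 3.70, 0.775, 2.07 and 1.08 in FRtip and 2.87, 1.39, 3.81 and 3.25 in WL at 300 min, where both were low. GA20OX1 was more abundant, with 119, 186 and 253 in FRtip and 77.0, 115 and 153 in WL at 140 to 180 min, and its effect was 0.70 ± 0.13, against -0.49 ± 0.22 at 300 min. None of the 5 gibberellin-inactivating GA2OX genes tested was called for the difference, which had a median of -0.43. Their median effect at 300 min was 0.97, with 2 of 5 higher in FRtip.

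PRE1, PRE5 and PRE6, small helix-loop-helix proteins that free growth factors from their inhibitors, and BAS1, which inactivates brassinosteroids, were faded rises too. Of 11 growth bHLH factors and targets, 4 had a positive difference and none a negative one, with a list median of 0.93. PRE2 and PRE4 were not analysed here. PRE1 had 35.7, 85.5 and 118 normalized counts in FRtip at 140 to 180 min, against 10, 21.3 and 34.2 in WL, with no overlap, and 22.9, 19.4, 33.1 and 29.1 in FRtip at 300 min, against 50.2, 26.5, 37.1 and 49.8 in WL. The effects were 1.94 ± 0.21 and -0.61 ± 0.36, a difference of 2.55 ± 0.42 (adjusted p 0.000115). BAS1 had 50.1, 64.2 and 105 in FRtip and 9.91, 20.6 and 33.3 in WL in the first window, and 25.9, 19.4, 33.1 and 32.3 in FRtip and 46.6, 27.2, 31.9 and 49.3 in WL at 300 min. PRE6 (KDR) kept apart at 300 min, with 289, 191, 346 and 290 in FRtip and 174, 122, 155 and 181 in WL, although its effect was 2.52 ± 0.16 earlier and 0.80 ± 0.28 then.

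In ethylene synthesis, 2 of 8 genes passed, both ACC synthases, the enzymes that make the ethylene precursor. ACS4 had 116, 225 and 338 normalized counts in FRtip at 140 to 180 min, against 13.9, 27.5 and 62.9 in WL, and 134, 98.4, 150 and 154 in FRtip at 300 min, against 83.2, 50.8, 68.0 and 135 in WL. Here the WL level moved more (-1.45) than the FRtip level (0.70), and the same held for ACS5, at -2.19 in WL and 0.32 in FRtip. ACS5 had 17.2, 40.5 and 58.8 in FRtip and 0, 3.18 and 10.7 in WL in the first window, and 28.1, 16.3, 33.8 and 42 in FRtip and 23, 9.05, 12.4 and 40.1 in WL at 300 min. The differences were 2.15 ± 0.51 for ACS4 and 2.51 ± 0.60 for ACS5 (adjusted p 0.0115 each), and both calls were lost without WL replicate 4 of 300 min, the highest WL sample (ACS4 1.89, adjusted p 0.0667, and ACS5 2.14, adjusted p 0.0785). ACS5 was also lost without FRtip replicate 2 (0.0602). Of 12 genes of ethylene signalling none was called for the difference, 8 were higher in FRtip at 140 to 180 min and 6 at 300 min. The promoter of ACS5 (chr5:26332813-26333062, minus strand) is shown because TGTCTC and CACATG share a base there.
ACS5: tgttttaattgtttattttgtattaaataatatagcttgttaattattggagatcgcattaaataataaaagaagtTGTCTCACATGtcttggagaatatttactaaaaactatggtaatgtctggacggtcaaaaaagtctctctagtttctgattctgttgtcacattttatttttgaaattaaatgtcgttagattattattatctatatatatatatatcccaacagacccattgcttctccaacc

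**Figure D4:**
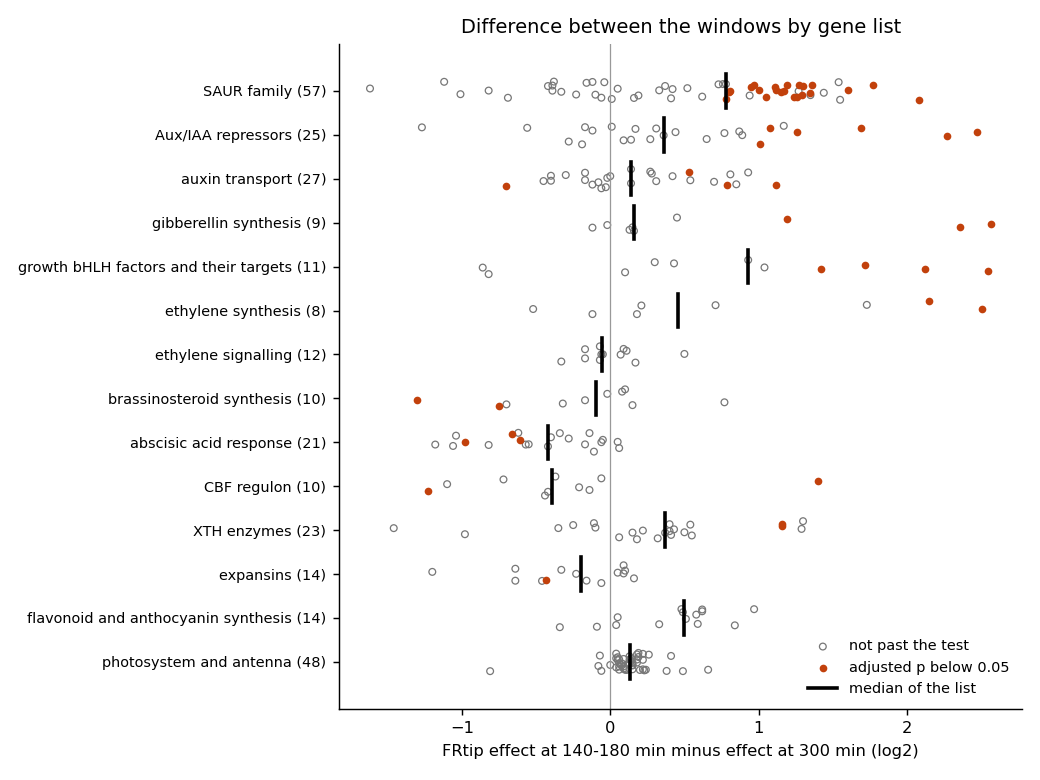
Effect at 140 to 180 min minus effect at 300 min (log2, horizontal) for every tested member of 14 gene lists (one row each, number of members in brackets), with called members filled, others open and the median as a black bar. SAUR, gibberellin synthesis, growth bHLH and ethylene synthesis genes past the test lie right of 0, and those of brassinosteroid synthesis and abscisic acid response lie left of it.

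Cytokinin genes were among the faded rises. ARR7, a type-A response regulator that damps cytokinin signalling, reversed: it had 320, 358 and 444 normalized counts in FRtip at 140 to 180 min, against 149, 194 and 233 in WL, and 128, 140, 132 and 158 in FRtip at 300 min, against 230, 212, 165 and 197 in WL. FRtip lay above WL in every sample of the first window and below it in every sample at 300 min, with effects of 0.90 ± 0.08 and -0.52 ± 0.14 (difference 1.41 ± 0.16, adjusted p 6.83e-08). CKX6, which degrades cytokinin, had a difference of 1.43 ± 0.24 and LOG8, which activates it, one of 1.00 ± 0.19. Of the lists they belong to, 1 of 8 type-A response regulators and 2 of 13 cytokinin breakdown and synthesis genes had a positive difference and none a negative one. Among the 8 regulators 2 were higher in FRtip and 2 lower at 140 to 180 min, and none higher and 1 lower at 300 min. Among the 13 genes 5 were higher and 2 lower at 140 to 180 min, and 2 higher and 1 lower at 300 min.

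In all, 12 genes were both faded rises and late falls, and 6 were both faded falls and late rises. ARF10, an auxin response factor that acts as a repressor, had 69.7, 92.0 and 160 normalized counts in FRtip at 140 to 180 min, against 34.5, 48.5 and 61.4 in WL, and 19.2, 20.9, 38.6 and 35.6 in FRtip at 300 min, against 56.0, 42.5, 41.4 and 49.8 in WL. As in ARR7 the groups did not overlap in either window and changed places, with effects of 1.1 ± 0.13 and -0.76 ± 0.22 (difference 1.86 ± 0.25, adjusted p 3.26e-06). The WL level of ARF10 changed by -0.03. AT5G50915, a bHLH factor, had effects of 1.02 ± 0.19 and -1.03 ± 0.32, and AT5G64780 of 1.00 ± 0.14 and -0.89 ± 0.25. The others were AT1G03457, AT1G66940, AT2G31730, AT5G10970, HKL1, PDLP3, AGP16 and ATTPPA, with effects of 0.20 to 0.64 and of -0.35 to -0.96.

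CPD, a cytochrome P450 of brassinosteroid synthesis, crossed the other way. It had 39.5, 66.5 and 116 normalized counts in FRtip at 140 to 180 min, against 90.9, 115 and 129 in WL, and 125, 142, 109 and 109 in FRtip at 300 min, against 71.0, 76.6, 112 and 70.9 in WL. The groups overlapped in both windows, and the effects were -0.74 ± 0.10 and 0.56 ± 0.18, a difference of -1.30 ± 0.21 (adjusted p 7.12e-05). BR6OX2, which makes brassinolide, was a late rise, with 158, 139, 128 and 108 in FRtip and 89.7, 83.6, 87.5 and 62.8 in WL at 300 min. Its difference of -0.75 ± 0.19 (adjusted p 0.0279) was not called without FRtip replicate 1 (0.102) or 2 (0.0734) or WL replicate 4 (0.141). These were 2 of the 10 brassinosteroid synthesis genes tested, and none had a positive difference. The others that crossed from lower to higher were MPK18, ABCB1, TBL10, BGAL3 and P1R1.

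The faded falls numbered 20, with a median difference of -0.76. AT1G48100, of the pectin lyase-like family, had 12.4, 16.3 and 22.2 normalized counts in FRtip at 140 to 180 min, against 24.2, 37.4 and 56.2 in WL, and 17.8, 18.6, 17.9 and 19.9 in FRtip at 300 min, against 15.1, 13.2, 12.8 and 17.3 in WL. The FRtip level changed by -0.19 between the windows while the WL level was 1.29 higher at 140 to 180 min, and the difference was -1.49 ± 0.21 (adjusted p 7.38e-06). BGAL3, a beta-galactosidase, had 441, 500 and 550 in FRtip and 509, 618 and 695 in WL in the first window, and 679, 847, 729 and 759 in FRtip and 453, 478, 511 and 491 in WL at 300 min, a difference of -0.94 ± 0.10 (adjusted p 2.3e-08). GH9B8, of the endoglucanase family, had effects of -0.62 ± 0.11 and 0.48 ± 0.18, and TBL10, of a family of wall acetyltransferases, of -0.25 ± 0.07 and 0.57 ± 0.13. EXPA6, an expansin, was the one called of 14 expansins, with 282, 301 and 361 in FRtip and 362, 388 and 445 in WL at 140 to 180 min, all FRtip samples below the lowest WL sample, and an effect of 0.10 ± 0.07 at 300 min.

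CYCP3;1, a P-type cyclin, had the largest difference of the class, -1.80 ± 0.32, with effects of -1.05 ± 0.16 and 0.74 ± 0.28. MYB3, a repressor of phenylpropanoid genes, had -0.93 ± 0.24 (adjusted p 0.0235) and lost the call without FRtip replicate 3 (0.0822) or 4 (0.0788) or WL replicate 1 (0.0614) or 2 (0.0594) of 300 min. HA1, a plasma membrane proton pump, was the one called of 13 pumps and PP2C.D phosphatases, at -0.35 ± 0.09 (adjusted p 0.0158, and 0.153 without WL replicate 1 and 0.0581 without FRtip replicate 3). P1R1 had effects of -0.49 ± 0.13 and 0.73 ± 0.22.

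Of 21 abscisic acid response genes tested, 3 had a negative difference and none a positive one, the list median was -0.42, and 2 of the 21 estimates lay above 0. At 300 min 5 were higher in FRtip and at 140 to 180 min 2. RD29A (LTI78), a drought and cold-inducible gene, had 292, 410 and 608 normalized counts in FRtip at 140 to 180 min, against 251, 373 and 478 in WL, and 2360, 1920, 2000 and 2020 in FRtip at 300 min, against 1010, 684, 1030 and 878 in WL. The level was higher at 300 min in both treatments, and the groups overlapped in the first window but not at 300 min (effects 0.24 ± 0.10 and 1.22 ± 0.17, difference -0.98 ± 0.20, adjusted p 0.00212).

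PP2CA, a phosphatase that holds abscisic acid signalling back and is itself induced by the hormone, had 68.9, 87.6 and 106 in FRtip and 69.9, 90.0 and 97.6 in WL at 140 to 180 min, and 112, 138, 124 and 116 in FRtip and 66.0, 86.3, 80.9 and 78.0 in WL at 300 min. The difference was -0.66 ± 0.13 (adjusted p 0.0011). ABF3, a bZIP factor of the pathway, stood at -0.61 ± 0.16 (adjusted p 0.0357), and its call was lost in 6 of the 8 fits without a single 300 min library (adjusted p 0.0555 to 0.124). The receptor PYL4 was a late fall instead, with 44.4, 101 and 164 normalized counts in FRtip and 81.4, 96.8 and 136 in WL in the first window, and 14.8, 9.30, 17.2 and 18.9 in FRtip and 56.7, 60.6, 42.3 and 50.9 in WL at 300 min, a difference of 1.64 ± 0.25 (adjusted p 2.31e-05). PYL4 was the 1 gene called for the difference among 9 receptors of its family, whose median difference was 0.11.

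NCED5, of the rate-limiting step of abscisic acid synthesis, was a faded rise at 2.08 ± 0.57 (adjusted p 0.0398), with 5.75, 22.5 and 46.6 in FRtip and 0.661, 2.23 and 5.68 in WL at 140 to 180 min. That call was lost in 6 of the 8 fits without a single 300 min library (adjusted p 0.0519 to 0.145). NCED5 was the 1 gene called for the difference among 10 of abscisic acid synthesis and breakdown, whose median difference was -0.15. NCED3 was low throughout, at no more than 3.25 normalized counts, and was not called (0.75 ± 0.48). The words ACGTGTC and ACGTGGC, abscisic acid response elements that can overlap a G-box (CACGTG), stood in 10 of 75 late rises (13.3%), 4.13% of faded rises and 7.24% of all tested genes. The promoter of PP2CA (chr3:3585851-3586100, minus strand) holds one of each, ACGTGGC read on the opposite strand, and also CACGTG and the sugar-linked TATCCA, and its ACGTGTC overlaps the auxin word TGTCGG.
PP2CA: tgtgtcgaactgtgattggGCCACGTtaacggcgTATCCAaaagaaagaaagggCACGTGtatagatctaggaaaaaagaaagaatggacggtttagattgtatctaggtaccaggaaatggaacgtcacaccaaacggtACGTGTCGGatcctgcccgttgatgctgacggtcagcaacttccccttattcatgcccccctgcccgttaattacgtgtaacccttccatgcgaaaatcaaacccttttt

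CER1, which makes the alkanes of cuticular wax, had the largest late rise. It had 4.07, 11.4 and 25.7 normalized counts in FRtip at 140 to 180 min, against 3.66, 6.63 and 12.4 in WL, and 34.8, 41.1, 80.6 and 52.3 in FRtip at 300 min, against 2.15, 6.27, 3.33 and 5.42 in WL. All 4 FRtip samples at 300 min lay above every other sample, and the difference was -2.65 ± 0.51 (adjusted p 0.00113). KCS2, which elongates fatty acids for wax and suberin, had 40.7, 47.3, 66.9 and 55.5 in FRtip and 12.9, 11.8, 12.8 and 12.5 in WL at 300 min, and MYB55, a MYB factor, 91, 95.3, 70.3 and 71.1 in FRtip and 17.9, 18.1, 24.3 and 19.5 in WL. Their differences were -1.49 ± 0.35 and -1.82 ± 0.33. CER1 and KCS2 are expressed in the epidermis, and the 4 epidermis markers tested summed to 2030 to 3720 in FRtip and 2700 to 4750 in WL at 300 min, with 1 of 4 (PDF1) higher in FRtip there.

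SULTR3;1, a sulfate transporter, was a late rise with 158, 168, 141 and 120 in FRtip and 53.1, 46, 67.1 and 43.3 in WL at 300 min (difference -1.18 ± 0.25), and MEF8S, of the family of organelle RNA editing proteins, had 106, 111, 134 and 113 in FRtip and 40.9, 39.7, 43.8 and 45.5 in WL (-1.18 ± 0.22). AT1G72060 (-1.18 ± 0.33) was lost in 5 of the 8 fits without a single 300 min library (adjusted p 0.057 to 0.201). PIF3, a phytochrome interacting factor, was the one called of 6 PIFs, at -0.85 ± 0.22 (adjusted p 0.0301), with 51.8, 42.6, 34.5 and 48 in FRtip and 25.1, 27.2, 23.3 and 28.7 in WL at 300 min, and was lost in 5 of the 8 fits without a single 300 min library (0.0576 to 0.0979). CBF1, a cold response factor, passed at an adjusted p of 0.0325 and was lost in 6 of the 8 fits (0.0589 to 0.177), but all its libraries other than FRtip at 300 min held at most 2 reads, and those held 2.96, 0.775, 0 and 2.69 normalized counts, so no fold is given.

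Late falls were led by AT4G21870, of the small heat shock protein family, which had 9.21, 28.4 and 57.1 normalized counts in FRtip at 140 to 180 min, against 15.5, 22.6 and 43.3 in WL, and 0, 0.775, 0 and 2.16 in FRtip at 300 min, against 6.46, 9.05, 9.04 and 10.3 in WL. It was lower at 300 min in both treatments, with at most 2.16 in FRtip (difference 2.72 ± 0.40, adjusted p 1.96e-05). These FRtip libraries held at most 4 reads each, so the size of this difference depends on the pseudocount. ORA59, an ethylene response factor of defence, had 17.4, 30 and 53 in FRtip and 16.1, 24.3 and 34.1 in WL in the first window, and 5.92, 3.10, 15.2 and 8.62 in FRtip and 52.4, 24.4, 16.2 and 38.4 in WL at 300 min (2.24 ± 0.45, adjusted p 0.00179). The lowest WL sample at 300 min lay just above the highest FRtip sample.

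AST56, the sulfate transporter SULTR2;2, had 36.8, 55.1 and 86.4 in FRtip and 35.8, 64.6 and 71.4 in WL in the first window, and 14.1, 13.2, 7.58 and 14 in FRtip and 51.7, 50.8, 34.7 and 43.9 in WL at 300 min (1.73 ± 0.23, adjusted p 3.26e-06). TRM24, of a family that recruits the microtubule protein TON1, had 19.2, 13.9, 14.5 and 16.7 in FRtip and 61, 46, 45.2 and 66.6 in WL at 300 min (1.89 ± 0.21, adjusted p 2.3e-08), and ADAP, an AP2-domain protein, had 2.22, 6.97, 8.96 and 4.31 in FRtip and 17.9, 23, 18.1 and 20.6 in WL (1.72 ± 0.35). XTH24, an enzyme that cuts and rejoins xyloglucan, had 95.5, 75.9, 122 and 137 in FRtip and 217, 214, 183 and 301 in WL at 300 min. Its call (1.16 ± 0.29, adjusted p 0.0193) was lost without FRtip replicate 1 (0.0504) or 2 (0.097) or WL replicate 4 (0.0971). XTH9, a second member of the 23 XTHs tested, was a faded rise (1.16 ± 0.24), and PIP2A, a water channel, a late fall, with 922, 893, 966 and 992 in FRtip and 1400, 1340, 1390 and 1440 in WL at 300 min (0.43 ± 0.11, adjusted p 0.0182, and 0.0646 without FRtip replicate 2 and 0.0594 without WL replicate 4). PIP2A was the 1 gene called for the difference among 13 water channels of its family, whose median difference was 0.02.

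ARF4, an abaxial identity gene, was also a late fall. It had 237, 278 and 301 normalized counts in FRtip at 140 to 180 min, against 239, 272 and 309 in WL, and 137, 126, 160 and 184 in FRtip at 300 min, against 251, 227, 210 and 250 in WL (0.66 ± 0.11, adjusted p 0.000132). YAB1 was lower in FRtip at 300 min too (effect -1.05 ± 0.26, adjusted p 0.0068), and the sum of the 7 abaxial identity genes was 443 to 535 in FRtip and 564 to 723 in WL at 300 min, while the 5 adaxial identity genes summed to 334 to 384 in FRtip and 267 to 384 in WL. Of the 7, ARF4 was the one called for the difference. In the adaxial petiole ARF4 was called as well, with a difference of 0.57 (adjusted p 0.0169, limma). Whether the makeup of the FRtip sections at 300 min has a part in the late classes was not tested. Guard cell markers summed to 75.4 to 122 in FRtip and 39 to 109 in WL at 300 min, and to 58.8 to 137 in FRtip and 43.8 to 80.6 in WL at 140 to 180 min, with no marker called for the difference. KAT1, 1 of 6 guard cell markers, was called higher in FRtip in both windows (effects 1.7 ± 0.19 and 1.4 ± 0.34). SUC2, 1 of 4 phloem markers, was called higher at 140 to 180 min (0.79 ± 0.11). LHCB2.1, 1 of 5 mesophyll markers, was called lower in both windows (-0.23 ± 0.06 and -0.31 ± 0.1).

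Several groups gave no called gene for the difference. Flavonoid and anthocyanin synthesis genes (14 tested) had a list median of 0.50, with an effect of -0.36 at 140 to 180 min and -0.83 at 300 min, when 2 were lower in FRtip, and glucosinolate synthesis genes (21 tested) had 0.49, with -0.06 and -0.52 and 2 lower. On the adaxial side, by the same contrast, 7 of these 21 had a positive difference (1.2% over all genes) and none a negative one. The adaxial median of the glucosinolate list was 0.50. In the abaxial petiole none passed among 48 photosystem and antenna genes (median 0.13), 17 clock genes (-0.01), 11 JAZ repressors (0.00), 13 jasmonate synthesis genes (0.04), 19 sugar starvation genes (0.09) and 10 cell division genes (-0.09). Of 8 light quality genes, PIL1 among them, none passed either (median 0.13). In FRtip 4 of the 8 were higher at 140 to 180 min (5.87% over all genes) and 2 at 300 min (2.67%). The CBF cold regulon (10 tested) had a list median of -0.39, with 3 genes higher and 1 lower in FRtip at 140 to 180 min, and 3 higher at 300 min. The factor CBF1 was called for a negative difference, at the few reads given above and so without a fold. The 1 member above 0 was GOLS3, which makes raffinose precursors, a faded rise at 1.40 ± 0.33 (adjusted p 0.00895, and 0.0572 without FRtip replicate 2 of 300 min). The sign of the list median held in every alternative for SAURs (0.41 to 0.96), growth bHLH genes (0.68 to 1.13), gibberellin synthesis (0.13 to 0.46), abscisic acid response (-0.57 to -0.33) and flavonoid synthesis (0.32 to 0.70).

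The same contrast was taken in the adaxial petiole and in the leaf tip, in samples whose values took no part in choosing the genes. The study separated the sides of the petiole at harvest, so samples of different tissues may come from the same leaves. A shared sign is therefore not an independent check. In the adaxial petiole 240 genes had a positive (1.2%) and 68 a negative difference (0.341%). Of the abaxial faded rises 60 of 121 (49.6%) were among them in the same direction, and so were 5 of 20 faded falls (25%), 26 of 75 late rises (34.7%) and 35 of 116 late falls (30.2%). The sign was shared by 121, 19, 73 and 115 genes of these classes, with adaxial medians of 0.80, -0.30, -0.43 and 0.51, against 1.14, -0.76, -0.65 and 0.77 in the abaxial petiole. The abaxial values are those the genes were chosen by, so a smaller median on the other side is a description. In the test of the difference between the sides no gene was called by limma (smallest adjusted p 0.0651, 576 genes or 2.89% at an unadjusted p below 0.05) and none by edgeR on the recovered reads, added after seeing the data (663 at an unadjusted p below 0.05). With same-numbered samples of the 2 sides taken as pairs, limma again called none (smallest adjusted p 0.0665, 874 genes or 4.38% at an unadjusted p below 0.05).

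In the leaf tip, where far-red was given, 64 genes had a positive (0.321%) and 130 a negative difference (0.651%). The leaf tip libraries of the same time points held 1068640 to 3037698 reads on genes, against 2349609 to 4291590 in the abaxial petiole. Whether the lower read numbers have a part in the number of calls in the leaf tip was not tested. Of the abaxial classes 2 of 121 faded rises (1.65%), 1 of 20 faded falls, 4 of 75 late rises and none of 116 late falls were called in the same direction, and 64, 10, 46 and 44 shared the sign, with leaf tip medians of 0.02, -0.03, -0.12 and -0.07. The abaxial difference was above that of the leaf tip in 177 genes (0.887%) and below it in 86 (0.431%), and these held 41 faded rises and 40 late falls above and 7 faded falls and 12 late rises below. The classes were chosen by the abaxial difference, which is part of this contrast, so their counts here are a description. Without replicate 3 in every group the counts over all genes were 33 and 16. IAA5 had a difference of 2.47 in the abaxial petiole, 1.36 in the adaxial petiole and -0.24 in the leaf tip, and ACS4 had 2.15, 1.39 and -0.94. LTI78 differed in sign, at -0.98 in the abaxial petiole, -1.20 in the adaxial petiole (adjusted p 0.000148) and 1.29 in the leaf tip (adjusted p 0.0829), and the abaxial minus leaf tip test gave an adjusted p of 0.000505.

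**Figure D5:**
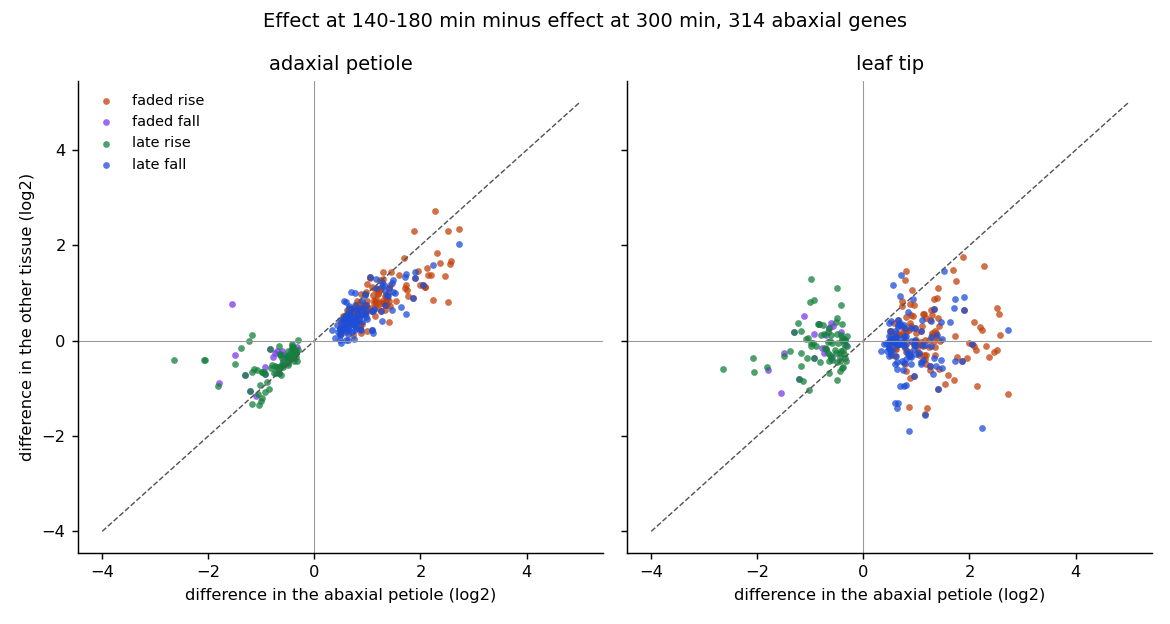
Difference between the windows (log2) of the 314 genes of the 4 classes in the abaxial petiole (horizontal) against the same difference in the adaxial petiole (left panel) and in the leaf tip (right panel), with equality as a dashed line. On the adaxial side nearly all genes keep the sign and most lie nearer to 0, and in the leaf tip they scatter around 0.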

How the data were processed

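RNA was measured by strand-specific poly-A sequencing (BrAD-seq) of leaf tips and of abaxial and adaxial petioles. The authors deposited 1 table of 33602 loci and 204 samples, whose values are a signal on a linear scale: gene counts divided by size factors (DESeq-normalized counts). The submitters' processing notes name FastQC, STAR, Picard, HTSeq and DESeq and the build TAIR10, and versions are not given in the sources used here. Dividing each sample by the value of 1 read, found from its low values, gave whole reads for 100.0% of values in every library (tolerance 0.1 reads).

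Values were analysed as log2(normalized count + 1) for 19963 genes with a mean of at least 1 over all samples. A limma 3.58.1 fit (R 4.3.3, two-sided, Benjamini-Hochberg over all genes) used the 64 abaxial samples of 60 to 300 min, fitted by treatment and time point. Gene members, the 36 gene lists and the marker lists were chosen with earlier results of these data known. The lists were matched by symbol or synonym and are described by counts and medians. Genes named in the text were the 8 with the largest difference in each class (mean of at least 10 over the 32 samples and, for faded classes, the same sign at 140, 160 and 180 min), called members of the lists, and genes the study examined in the petiole. That made 88 genes, of which 83 were called. HB17 and the marker genes ARF4, YAB1, PDF1, KAT1, SUC2 and LHCB2.1 fall outside it. Promoters were the 250 bases before each RefSeq start in TAIR10.1, found for 19810 of the genes tested, and 300 bases as an alternative.

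The pipeline was tested on simulated data with known changes. Alternatives were the pseudocount, the filter, centring, the fit, edgeR 4.0.16 on the recovered reads, the window, the block and left-out replicates or libraries. Values after ± are standard errors of the limma fit, which come from the spread between these samples. Limits drawn from low read numbers cover counting error only. Tables and figures were made with Python 3.11.15, pandas 2.3.3, NumPy 2.4.6 and matplotlib 3.10.9.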

Additional observations from a re-analysis of the deposited data

Results flagged for a closer look

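In groups of 4 samples, 1 sample lay far from the other 3 in 3 of the 76 groups of 38 named genes examined, and chance alone gives about 5% of groups. AST56 was at 7.58 normalized counts in FRtip replicate 3 at 300 min, against 13.2 to 14.1 in the others. CPD was at 112 in WL replicate 3 at 300 min, against 70.9 to 76.6. HAT2 was at 73.6 in FRtip replicate 2 at 300 min, against 116 to 124. All 3 genes kept their call without that library.

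For 15 of these genes the difference between the windows in the abaxial petiole departed from that in the leaf tip by the test of the difference itself (limma, Benjamini-Hochberg adjusted). Above the leaf tip stood ORA59 by 4.07 (adjusted p 0.00596, leaf tip -1.84), ACS4 by 3.08 (0.00325, leaf tip -0.94), IAA5 by 2.71 (0.00364, leaf tip -0.24), GA3OX1 by 2.7 (0.00759, leaf tip -0.34), AT4G21870 by 2.48 (0.0114, leaf tip 0.23), GA20OX2 by 2.45 (0.00588, leaf tip 0.13) and HAT2 by 2.42 (1.19e-05, leaf tip -0.1). ARF10 stood above it by 2.28 (0.000482, leaf tip -0.42), AST56 by 2.17 (0.0028, leaf tip -0.43), AT5G50915 by 2.13 (0.00364, leaf tip -0.07), AT3G50340 by 2.0 (0.0127, leaf tip 0.23) and PRE1 by 1.99 (0.0151, leaf tip 0.56). Below the leaf tip stood CPD, at -1.49 (9.67e-05, leaf tip 0.18), TBL10, at -1.18 (0.000332, leaf tip 0.35), and MYB3, at -1.07 (0.0411, leaf tip 0.14). The genes were chosen for a large abaxial difference, which is part of this contrast. The size of these values and the number of genes past the test are therefore a description.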

How the results depend on the processing

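No named gene changed direction in any alternative, and 43 of 83 called genes were called in every one. With the replicate block 350 genes had a positive and 144 a negative difference, with 38 faded falls and 199 late falls, and all 320 genes called without it remained. Same-numbered FRtip and WL samples deviated together at r of -0.053 to 0.223, above 0.1 in 7 of 16 pairs. The numbers were not taken as pairs, since that would have needed every pair above 0.1, although 21 of 32 samples correlated best with their own number, a hint from the data of a shared replicate effect. Fitting only the 32 samples gave 34 faded falls. A window of 160 and 180 min gave 54 genes with a negative difference, 13 faded falls, 44 late rises and 72 late falls. With 140 and 180 min there were 674 genes lower in the first window, 9 faded falls and 77 late falls, and with 140 and 160 min 742 higher and 435 lower. Without 1 replicate or 1 library of 300 min, genes with a positive difference numbered 81 to 234 and with a negative one 26 to 88, genes higher in the first window 766 to 1173 and lower 577 to 1014, genes higher at 300 min 198 to 488 and lower 342 to 790, faded rises 50 to 132, faded falls 9 to 24, late rises 17 to 69 and late falls 34 to 120. The lowest values were without replicate 4 in every group, which leaves 3 samples a group. The abaxial difference was above that of the leaf tip in 33 to 95 genes and below it in 16 to 28 without 1 replicate (fewest without replicate 3), and below it in 143 under a replicate block of leaf pools and in 135 with edgeR, chosen after seeing the data. In other cases the cause was not tested. Called SAURs numbered 11 to 25 over the alternatives. List medians near 0 changed sign in up to 14 alternatives (JAZ repressors). The effect at 300 min rests on 4 samples a group, and 22 of 83 calls were lost without a single library of that time.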
